A study of Mus musculus with 284 samples.

Results

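Tbx1 and Nfatc1 are transcription factors of hair follicle stem cells, and 99 of the 284 skin tumour cells examined here carried transcripts of at least 1 of them. These cells, called carriers below, were chosen by 1 rule: an expected count (an estimated number of reads assigned to a gene) above 0 for Tbx1 or for Nfatc1. The other 185 cells had 0 for both and served as the comparison within each mouse. The values that chose the carriers are therefore the Tbx1 and Nfatc1 counts themselves, and the levels of these 2 genes are given as a description with no test.

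The data are Smart-seq2 transcriptomes (full-length cDNA of single sorted cells) of tumour propagating cells, those cells of a tumour from which it can grow anew in another animal. All 4 mice carried the ROSA26-LSL-eYFP reporter with Keratin14-Cre, a driver active in basal keratinocytes, received DMBA (a carcinogen) 1 time at 8 weeks of age and then TPA (a tumour promoter) repeatedly for over 20 weeks. Living YFP-positive cells with CD34 and CD49f on their surface were sorted, both being markers that hair follicle bulge cells also carry. WT1 and WT2 were labelled wild type and gave 69 and 88 cells, and KO1 and KO3 were labelled Sirt6-/- and gave 73 and 54 cells. The unit of every test was the mouse, 2 per genotype. KO1 lay on plates 1 and 2, KO3 on plate 2, WT1 on plate 3 and WT2 on plates 3 and 4, which means that effects of genotype and of plate cannot be told apart.

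In the hair follicle, stem cells sit in a niche called the bulge and stay out of the cell cycle for long periods. Nfatc1 is held in the cytoplasm until the phosphatase calcineurin, switched on by calcium, lets it enter the nucleus, where it is known to keep bulge cells quiescent and to hold down the cyclin-dependent kinase Cdk4. BMP signals maintain Nfatc1 in these cells, and Tbx1 is known to support their self-renewal through repeated hair cycles and to restrain BMP signalling.

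Tbx1 (ENSMUSG00000009097.10) lies on chromosome 16 at 18580979 to 18590671 and Nfatc1 (ENSMUSG00000033016.16) on chromosome 18 at 80606205 to 80713071, both on the minus strand of GRCm38 in the GENCODE M21 annotation. Tbx1 counts were present in 62 cells and Nfatc1 counts in 50 cells. Both genes were present together in 13 cells, where 11.3 would be reached if the 2 genes fell independently within each mouse. Of the cells with a Tbx1 count, 16% in WT1 and 36.8% in WT2 also had an Nfatc1 count, as did 9.09% in KO1 and 14.3% in KO3. Among cells without Tbx1 the shares with Nfatc1 were 13.6%, 30.4%, 6.45% and 12.8% in the same order. In each mouse the share with Nfatc1 was thus a little higher in cells with Tbx1 than in cells without, which was not tested. Cells with both genes numbered only 4 in WT1, 7 in WT2 and 1 each in KO1 and KO3. The carriers were mostly cells with 1 of the genes and not a group that shared both.

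The mix of the 2 genes differed between the wild-type mice. WT1 had 25 cells with Tbx1 and 10 with Nfatc1, while WT2 had 19 with Tbx1 and 28 with Nfatc1. KO1 had 11 with Tbx1 and 5 with Nfatc1, and KO3 had 7 with each. Tbx1 thus led in WT1 and KO1 and Nfatc1 in WT2.

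Levels within cells spanned 2 orders of magnitude and rested on few reads. Where Tbx1 was present its count lay between 1 and 135 with a median of 13, and the Nfatc1 count lay between 1 and 479 with a median of 27. In CPM (counts of a gene scaled to the same total in every cell, which takes no account of gene length, so that the 2 genes are not compared with each other), the median Tbx1 level was 9.60 in WT1, 30.0 in WT2, and KO1 and KO3 gave 12.6 and 14.7. The median Nfatc1 level was 14.8 CPM in WT1, 26.5 in WT2, and KO1 and KO3 gave 18.1 and 25.6. The 5 cells with the most reads held 31.9% of all Tbx1 counts and 52.8% of all Nfatc1 counts, and 1 cell of WT1 had 47.6% of the Nfatc1 counts of that mouse. At the edge of the rule, 10 carriers had a single count, and 22 had fewer than 5 counts of either gene (6 in WT1, 8 in WT2, and 4 each in KO1 and KO3). The cells just outside it had 0 of both by definition.

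**Figure D1:**
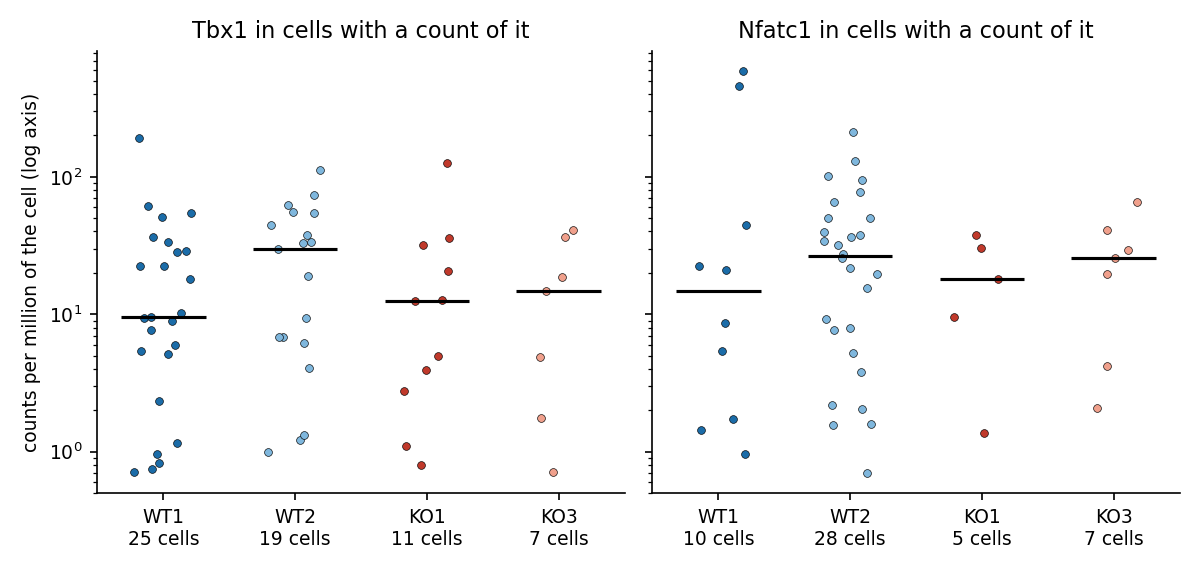
Level of Tbx1 (left) and Nfatc1 (right) in each cell with a count of that gene, in CPM on a log axis, by mouse. Each point is 1 cell and the bar is the median of the mouse. The points of the 4 mice overlap, with Tbx1 medians of 9.60 to 30.0 CPM and Nfatc1 medians of 14.8 to 26.5 CPM, and 1 WT1 cell reaches 590 CPM of Nfatc1.

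Carriers made up a smaller share of the cells in the mice labelled Sirt6-/- than in the wild-type mice. In WT1, 31 of 69 cells were carriers (44.9%, 95% interval 32.9 to 57.4, exact Clopper-Pearson), and in WT2, 40 of 88 (45.5%, 34.8 to 56.4). In KO1, 15 of 73 cells were carriers (20.5%, 12.0 to 31.6), and in KO3, 13 of 54 (24.1%, 13.5 to 37.6). The intervals cover counting error only. The mean share was 45.2% ± 0.373 (SD, n = 2) in wild type and 22.3% ± 2.49 (SD, n = 2) in Sirt6-/-, a difference of 22.9 percentage points. The mice of the 2 genotypes did not overlap. An exact two-sided permutation test over 2 against 2 mice cannot go below p = 0.33, which is the value it gave, so it decides nothing here. The share comes from the same counts that chose the carriers. Lower Tbx1 and Nfatc1 levels under the Sirt6-/- label were also known before the choice, so the shares are a description. Among the 2840 other genes with a count in 25% to 45% of all cells, 14.4% had both Sirt6-/- mice below both wild-type mice, so an order of this kind is not rare among genes of similar detection. That percentage counts the order in single genes and not the size of the gap, whereas the carrier share joins 2 genes.

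The same order held for each gene alone. Tbx1 counts were present in 36.2% of cells in WT1, 21.6% in WT2, and KO1 and KO3 gave 15.1% and 13.0%. Nfatc1 counts were present in 14.5%, 31.8%, 6.85% and 13.0% of cells in the same order. For Tbx1 the gap between WT2 and KO1, and for Nfatc1 that between WT1 and KO3, lay well within the counting intervals of the shares. Among the 3962 genes with a count in 10% to 30% of cells, 14.3% showed both Sirt6-/- mice below both wild-type mice. Summed over all cells of a mouse, Tbx1 stood at 7.83 CPM in WT1, 6.58 in WT2, and KO1 and KO3 gave 3.40 and 2.28. The summed Nfatc1 level was 13.1, 13.7, 1.47 and 3.59 CPM in the same order. Its WT1 value rested largely on 1 cell with 479 Nfatc1 counts and 1 with 397. The median was 14 counts among the 10 WT1 cells that had any. Whether the order of the summed Nfatc1 levels remains without these high cells was not tested.

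**Figure D2:**
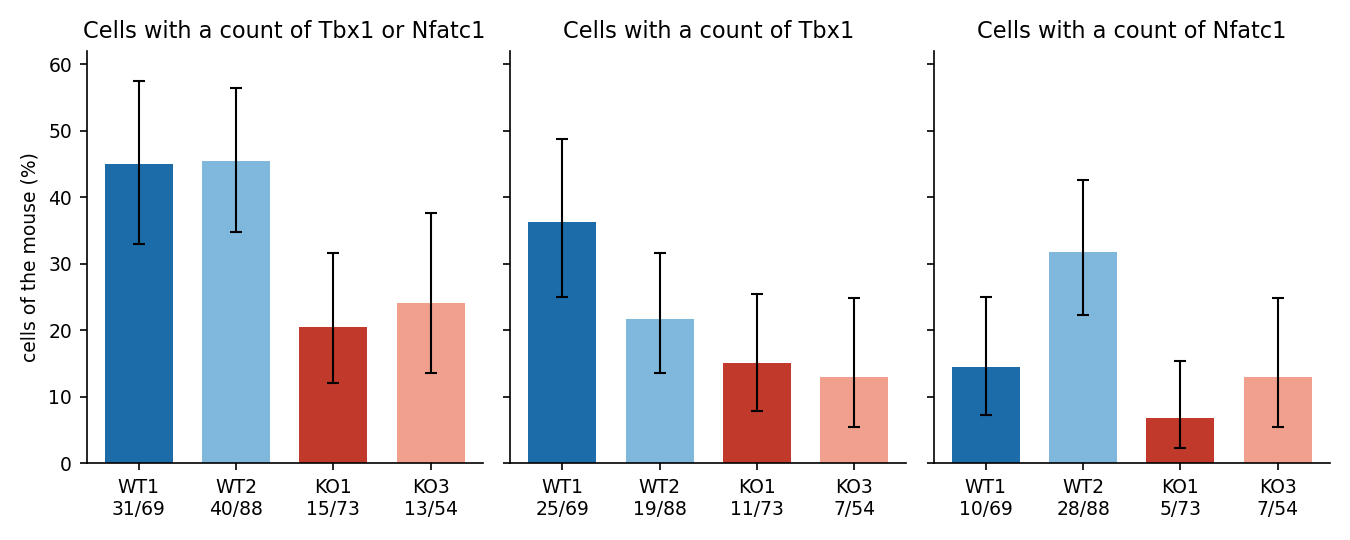
Share of the cells of each mouse with a count of Tbx1 or Nfatc1 (left), of Tbx1 (middle) and of Nfatc1 (right), in percent. Bars are shares, error bars are exact 95% binomial intervals, and the numbers under each mouse give cells with a count over all cells. In the left panel both wild-type mice stand near 45% and both Sirt6-/- mice near 22%.

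The share was also taken with depth in view. The median number of genes detected was 7049 in carriers and 6736.5 in other cells of WT1, 6253 and 5460 in WT2, 6246 and 6400 in KO1, and 6612 and 6617 in KO3. Carriers thus had more detected genes than other cells in the wild-type mice only by these medians, a difference between genotypes that was not tested. In a logistic fit with mouse as a term, the odds of being a carrier were 1.45-fold higher for each additional 1000 detected genes (log odds 0.37 ± 0.14, SE over cells, which are not replicates). At the median number of detected genes the fitted shares were 41.7% in WT1, 50.4% in WT2, and KO1 and KO3 gave 20.7% and 22.2%. After every cell was thinned to 500000 counts, which left out no cell, the shares were 40.6%, 42.0%, 17.8% and 20.4%. On the plate that held most cells of a mouse the share was 45.7% in WT2 and 21.5% in KO1. The few cells on the other plates gave 3 carriers of 7 in WT2 and 1 of 8 in KO1.

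Sirt6, the gene named in the labels, did not follow them. Summed over carriers it stood at 14.1 CPM in WT1, 27.5 in WT2, and KO1 and KO3 gave 24.1 and 19.9, and over other cells at 18.7, 23.3, 27.7 and 12.8 CPM. The Sirt6-/- mice lay inside the wild-type range among carriers. A count over the whole gene does not show which exons the reads came from, so directions between genotypes below refer to the labels.

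Carriers were keratinocytes by their markers, as were the other cells. Krt14, the main keratin of basal cells, was present in all 99 carriers and all 185 other cells, with 19330 to 30210 CPM among the carriers of the 4 mice and 21310 to 30070 CPM among the other cells. Krt5, its partner keratin, was present in every cell as well. Trp63, the master factor of stratified epithelium, had a count in 98 carriers and Itga6, which encodes CD49f, in 97. Markers of other cell types were sparse. At 0 in all carriers were 4 of 11 fibroblast markers (Col1a2, Col3a1, Dcn and Lum) and 7 of 16 immune markers, Cd3e and Cd8a among them. So were 4 of 11 endothelial markers with Kdr and Cldn5, 5 of 8 melanocyte markers with Dct and Tyr, and 6 of 13 muscle and adipocyte markers. The rest of each list had a count in some carrier. Cells with 2 or more fibroblast markers were 8 carriers and 6 other cells. For the endothelial list these were 5 and 8, for the immune list 5 and 9, for the muscle and adipocyte list 6 and 13, and for the melanocyte list 0 and 0. The summed level of the 11 fibroblast markers was 124 to 335 CPM in carriers and 125 to 216 CPM in other cells, and Fbln1 alone made up 88.4% of it in carriers. The 11 endothelial markers summed to 8.26 to 14.0 CPM against 2.92 to 10.3 CPM, the 16 immune markers to 17.5 to 43.6 CPM against 8.85 to 29.6 CPM, the 8 melanocyte markers to 0 to 3.01 CPM against 0.209 to 6.99 CPM, and the 13 muscle and adipocyte markers to 16.4 to 51.0 CPM against 25.6 to 75.8 CPM. Within each mouse, endothelial markers were higher in carriers of all 4 mice and melanocyte markers lower in all 4, while the other 3 lists had no common direction. The part of these transcripts in the results below was not tested.

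The question for the rest of the transcriptome was which genes carriers expressed at another level than the other cells of the same mouse. For each gene and mouse, log2(CPM + 1) per cell was fitted on carrier status and on the number of detected genes. The carrier term, called the difference here, is on the log2(CPM + 1) scale and understates changes of low genes. The 4 differences were then tested over mice with limma. Of 10642 genes tested, 0 passed an adjusted p of 0.05 (0% called), with a smallest adjusted p of 0.624, and 784 had an unadjusted p under 0.05 (7.37%). The difference was positive for 46.9% of genes, positive in all 4 mice for 6.31% and negative in all 4 mice for 7.91%, and these shares are the background for the lists below. Without the detected-genes term 63.9% of genes were positive and the median difference of all genes was 0.09, so differences are read against the median of their own fit. On sums of counts per mouse and class, edgeR with mouse as a block called 0 of 16533 genes (0%), with 580 at an unadjusted p under 0.05. DESeq2 on the same sums called 33 genes higher and 58 lower in carriers, 0.613% of the 14848 genes to which it gave an adjusted p.

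The genes of smallest p with the same sign in every mouse are described by their values, since none passed. Among the 8 on the higher side was Hspg2, which encodes perlecan, a heparan sulphate proteoglycan of basement membranes (chromosome 4, 137468769 to 137570630). Its summed level was 61.0 CPM in carriers and 31.2 in other cells of WT1, 39.4 and 7.57 in WT2, 44.1 and 24.6 in KO1, and 33.8 and 18.2 in KO3. Carriers were above the other cells in all 4 mice, with a difference of 1.20 ± 0.19 (SE, n = 4 mice) and an adjusted p of 0.624 (limma). DESeq2 called Hspg2 on the sums (log2 difference 1.26, adjusted p = 0.0477), whereas edgeR did not.

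Dst encodes dystonin, whose epithelial form links keratin filaments to hemidesmosomes, the junctions that anchor basal cells to the basement membrane. Its difference was 1.16 in WT1, 0.79 in WT2, and KO1 and KO3 gave 1.07 and 1.16, the mean being 1.01 ± 0.16. Its summed level did not follow in WT2, with 323.0 CPM in carriers and 351.7 in other cells, and was above in the other 3 mice. Papln, a secreted papilin, had 27.7 against 4.15 CPM in WT1, 31.5 against 11.8 in WT2, 19.3 against 17.2 in KO1 and 20.1 against 4.57 in KO3. Papln was above in every mouse on both scales, but only 33 carriers and 36 other cells had a count of it.

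The other 5 genes on the higher side were P4ha1, a collagen prolyl hydroxylase subunit (difference 1.08 ± 0.18), Fgfr1, a fibroblast growth factor receptor (1.20 ± 0.21), Rab15, a small GTPase of endosomes (1.21 ± 0.21), the aminopeptidase Npepps (1.15 ± 0.20) and the oxidoreductase Ndor1 (0.99 ± 0.16). P4ha1 and Rab15 also had the higher sum in carriers of all 4 mice, and Fgfr1, Npepps and Ndor1 in 3 of 4. Fgfr1 was the exception in WT1, at 43.7 CPM in carriers against 61.8 in other cells.

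On the lower side, Clk4, a kinase of splicing factors (chromosome 11, 51261730 to 51281766), had the smallest p of all genes named. It stood at 30.3 CPM in carriers against 52.8 in other cells of WT1, 38.2 against 62.9 in WT2, 50.8 against 53.5 in KO1 and 15.8 against 43.6 in KO3. The difference was -1.26 ± 0.15, with the sums lower in all 4 mice, and the adjusted p was again 0.624 (limma). Tollip, an adaptor that dampens Toll-like receptor signalling, had a difference of -1.11 ± 0.18, and its sums were 127 against 199 CPM in WT1, 162 against 206 in WT2, 72.4 against 129 in KO1 and 122 against 155 in KO3. DESeq2 called Tollip (log2 difference -0.55, adjusted p = 0.0167). The remaining genes were Tmem41a (-1.21 ± 0.18), Ubxn4, a factor of endoplasmic reticulum protein degradation (-1.03 ± 0.16), the ubiquitin ligase Hectd3 (-0.95 ± 0.15), Akr7a5, an aldo-keto reductase (-1.18 ± 0.20), Scd2, a fatty acid desaturase (-0.96 ± 0.16), and Mrpl9, a mitochondrial ribosomal protein (-1.15 ± 0.20). All of these had lower sums in carriers of every mouse except Akr7a5, which was lower in 3 of 4. Across these 16 genes the groups differed in the same direction in every mouse because the choice required it.

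**Figure D3:**
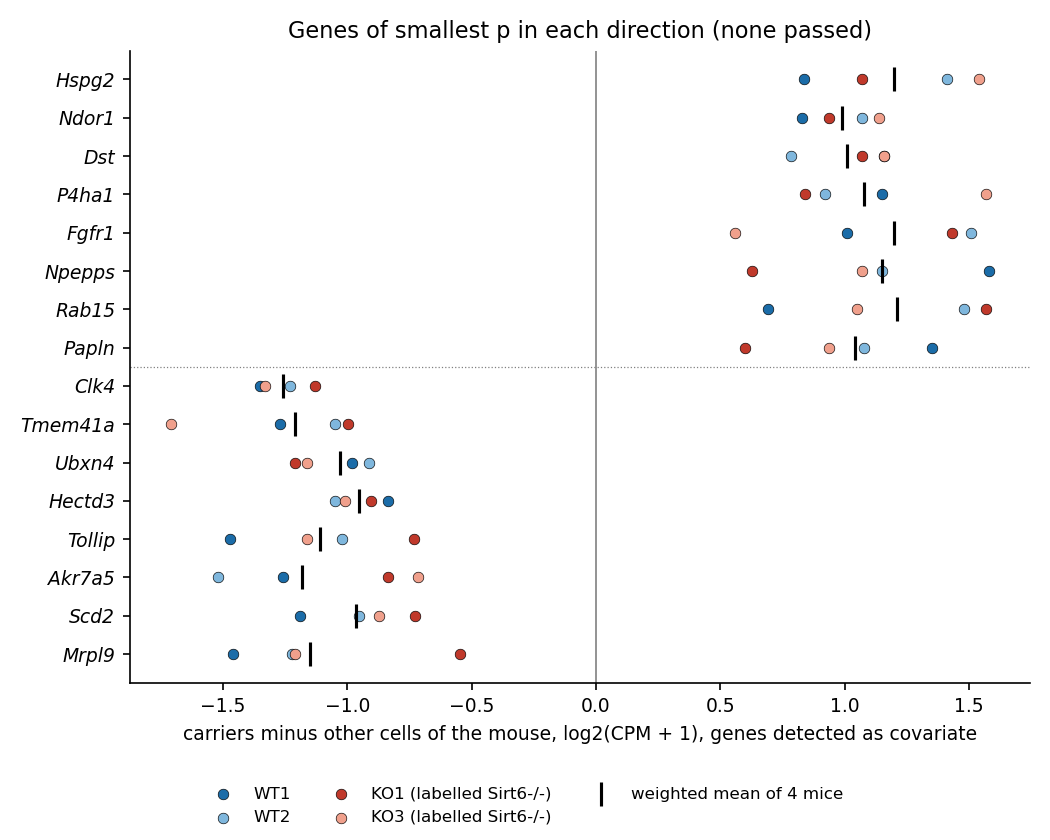
Difference between carriers and other cells of the same mouse on the log2(CPM + 1) scale, with the number of detected genes as covariate, for the 8 genes of smallest p in each direction. Points are mice and the black bar is the mean weighted by cells. Points of both genotypes intermix on either side of 0, from -1.71 for Tmem41a in KO3 to 1.58 for Npepps in WT1.

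Lists of genes of known function are given by their counts and medians beside those of all genes, whose median difference was -0.02. With limma and edgeR 0 members of any list passed.

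Basal keratinocyte genes stood above 0 in carriers: 18 of 19 tested members had a positive difference, 9 of them in all 4 mice, and the median was 0.46. Sparc, a matrix glycoprotein, had a difference of 1.22 ± 0.36, and its sums were higher in carriers of all 4 mice (181 against 139 CPM in WT1, 55.7 against 47.3 in WT2, 71.0 against 45.5 in KO1 and 105 against 29.2 in KO3). Thbs1, a matrix protein of wounds, had 0.89 ± 0.30 and was positive in all 4 mice, although its sum was higher in carriers of KO3 only. The next genes are named after their values were seen. The laminin genes Lama3 and Lamb3, for chains of the basement membrane, had 0.88 ± 0.36 and 0.46 ± 0.32. The hemidesmosome genes Col17a1 and Itgb4 had 0.84 ± 0.28 and 0.72 ± 0.28, and Itgb1, the beta 1 integrin, had 0.75 ± 0.24. By contrast Krt14 (0.06 ± 0.15), Krt5 (0.24 ± 0.17) and Trp63 (0.03 ± 0.25) were near 0, and Cd151 alone was negative (-0.32 ± 0.24).

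Sums gave less of this pattern. On summed counts 12 of the 19 basal genes were higher in carriers, with a median log2 difference of 0.03, where 43.4% of all genes were positive. Col17a1 illustrates the gap: its sums were 1820 against 1507 CPM in WT1 and 1119 against 775.5 in KO3, but 2731 against 3295 in WT2 and 1070 against 1245 in KO1. The 2 scales differ in that sums weigh cells with high counts, while the mean of log values weighs every cell alike and carries the detected-genes term. KO3 had the largest shift of the list, with a median of 1.33 against 0.30 in WT1, 0.33 in WT2 and 0.18 in KO1, and the median was 0.22 when KO3 was left out.

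Suprabasal genes, which mark the layers that differentiate above the basal one, lay on the other side: 10 of 12 tested members were negative, with a median of -0.52, and on sums 4 were positive, with a median of -0.24. Ly6d, a surface protein of committed epithelial cells, had -0.98 ± 0.40, and Lypd3, a surface protein of the upper layers, -0.81 ± 0.24. The receptor Notch3 had -0.83 ± 0.38 and Krt1, the first keratin of the differentiating layers, -0.80 ± 0.52. Named after their values were seen, Krt10 (0.01 ± 0.33) and Sbsn (0.41 ± 0.31) were the members above 0. The median was -1.71 in KO3 and -0.82 in WT2 but -0.08 in WT1 and 0.18 in KO1, so the direction was not shared by all mice. Ivl, Lor and Tgm1 had a count in too few cells to be tested. When the class was defined by Tbx1 alone the median was -0.06, and by Nfatc1 alone -0.64 with all 12 genes negative. In these 2 settings the comparison was every cell without the gene in question. It thus held the 37 cells with only Nfatc1 in the first and the 49 with only Tbx1 in the second.

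**Figure D4:**
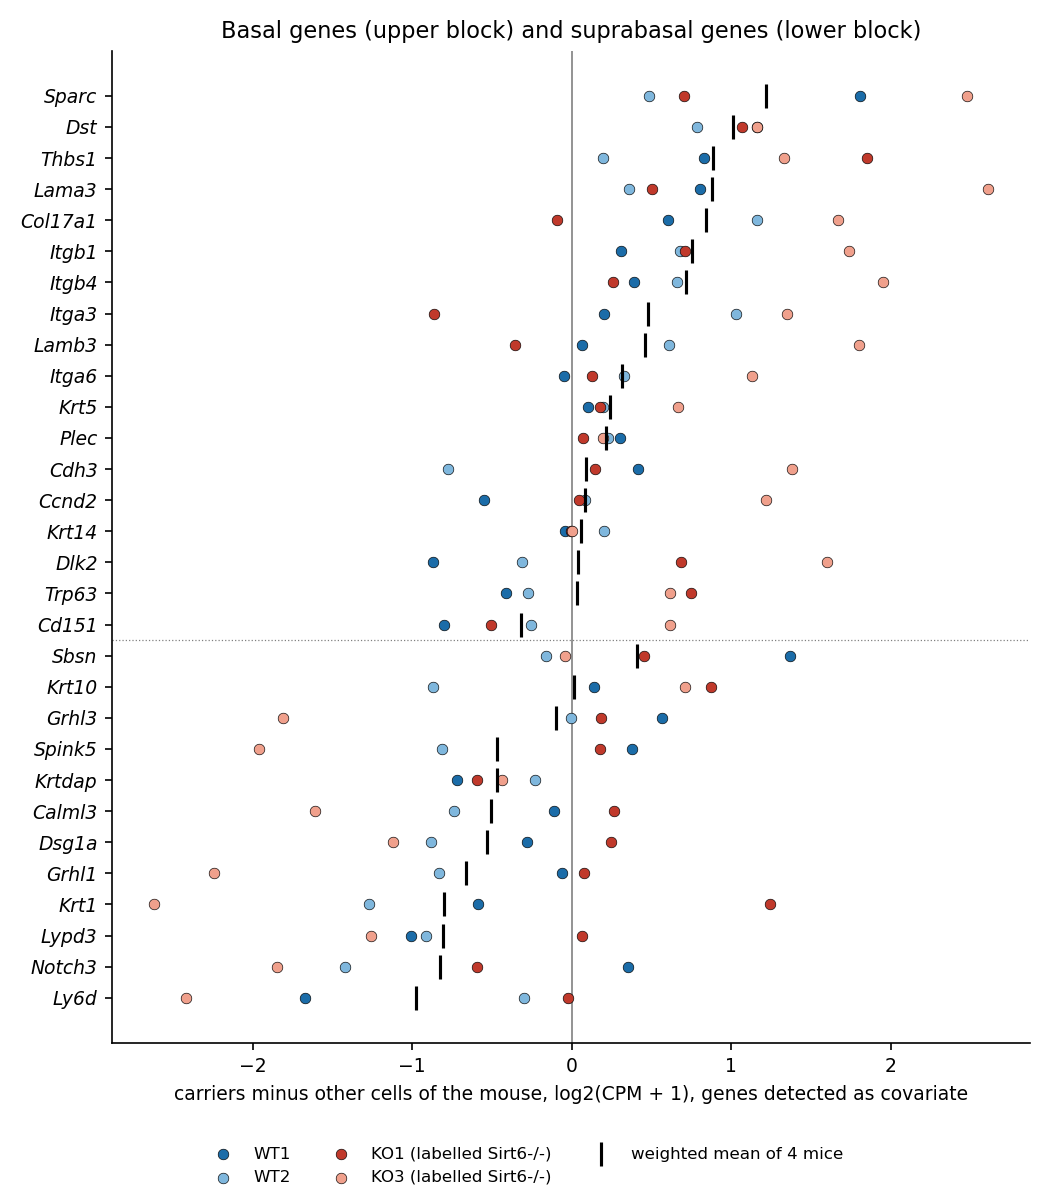
Difference between carriers and other cells of the same mouse, log2(CPM + 1) with the number of detected genes as covariate, for 18 of the 19 basal genes (upper block) and the 12 tested suprabasal genes (lower block), each ordered by the weighted mean (black bar). Points are mice. KO3 has the highest value for 13 of the 18 basal genes drawn and the lowest for 9 of the 12 suprabasal genes.

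Genes of the follicle stem cell itself mostly lay above 0, though few did so in every mouse. Of 31 listed genes 30 were in the table and 18 could be tested: 13 were positive and 5 negative, 3 were positive in all 4 mice, and the median was 0.17 (0.05 on sums, with 12 of 18 positive). Over all genes 46.9% were positive. Within mice the median was 0.59 in WT1 and 0.14 in WT2, and KO1 and KO3 gave 0.007 and 0.34. Krt15, a keratin of the bulge, had the largest difference, 1.09 ± 0.36. Its sums were 1952 against 1183 CPM in WT1 and 1241 against 805 in KO1, but 1091 against 1224 in WT2 and 169 against 522.5 in KO3, so that sums were higher in carriers of 2 mice only. Gas1, a surface protein that binds Hedgehog ligands, had 0.71 ± 0.24 and Nfix, a nuclear factor of bulge cells, 0.74 ± 0.33. Sox9, required for bulge stem cells, stood at 0.31 ± 0.20, with sums of 134 against 92.2 CPM in WT1 and 196 against 286 in WT2.

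Cd34, whose protein was used to sort all cells, had a difference of 0.77 in WT1 and 0.65 in WT2 but -1.28 in KO1 and -0.16 in KO3. Over all 10642 genes 11.8% had 1 sign in both wild-type mice and the other in both Sirt6-/- mice. Runx1, a factor that helps bulge cells enter the hair cycle, had a mean of -0.62 ± 0.56, with -2.35 in WT2 and 0.32 to 0.36 in the other 3 mice. Other bulge genes were nearly absent: Lhx2 had a count in 3 carriers and 2 other cells, Lgr5 in 3 and 1, Gli1 in 1 and 0, Wif1 in 1 and 0, and Fgf18 in 1 and 1. Leaving out WT1 turned the median of the list to -0.02, and without it 8 of 18 members were positive.

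The calcineurin and NFAT list pools genes that switch Nfatc1 on, genes that oppose this, such as Rcan1, and relatives and known targets of Nfatc1. Its median is therefore no measure of NFAT activity. Of 19 tested members 13 were positive and the median was 0.40. Within mice the median was lower in 3 of 4, at 0.145 in WT1, -0.02 in KO1 and 0.11 in KO3 against 0.47 in WT2, and on sums it was 0.04 with 12 of 19 positive. Nfat5, the relative that answers osmotic stress, had 0.90 ± 0.29, and Nfatc3, a calcium-dependent relative, 0.65 ± 0.19. Both were positive in all 4 mice. Their sums were less uniform: Nfat5 stood at 40.6 against 43.5 CPM in WT1, 60.4 against 49.8 in WT2, 53.1 against 39.1 in KO1 and 40.8 against 30.9 in KO3.

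The catalytic calcineurin subunits Ppp3ca (0.48 ± 0.18) and Ppp3cb (0.50 ± 0.23) were above 0, and the regulatory subunit Ppp3r1 below it (-0.75 ± 0.26). Rcan1, an inhibitor of calcineurin that NFAT itself induces, had 0.40 ± 0.53, with 3.08 in KO3 and -0.69 in KO1. Cdk4, the kinase that Nfatc1 is known to repress, was present in 98 of 99 carriers and differed by 0.07 ± 0.19. Its sums in carriers and other cells were 375 and 340 CPM in WT1, 320 and 283 in WT2, 525 and 535 in KO1 and 394 and 400 in KO3. Ccnd1, its cyclin partner, had -0.12 ± 0.31, and Ptgs2, a prostaglandin synthase that NFAT can induce, 1.01 ± 0.64 with opposite signs between mice. The median of the list was 0.16 without WT2, 0.17 without KO1, 0.08 for Tbx1 alone and 0.03 for Nfatc1 alone.

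BMP pathway genes were divided, with 6 of 12 tested members positive and a median of -0.01. The receptor Bmpr1a had 0.31 ± 0.16 and the ligand Bmp2 0.49 ± 0.21, both positive in all 4 mice. The transducers Smad4 (0.52 ± 0.26), Smad5 (-0.18 ± 0.31) and Smad1 (-0.46 ± 0.36) had different signs. The target genes Id1 (-0.08 ± 0.24), Id2 (0.17 ± 0.50) and Id3 (0.34 ± 0.37) were near 0 relative to their errors. The antagonists Nog, Grem1 and Chrd each had a count in 1 carrier and in 0 other cells.

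Among WNT and hair germ genes 7 of 10 tested were positive (median 0.20). On sums 5 of 10 were positive (median -0.02), the median within WT2 was -0.15, and without WT1 or without KO3 it was 0.12. Msx1, a homeobox gene of the hair matrix, had 0.85 ± 0.20 and the higher sum in carriers of all 4 mice: 21.8 against 18.0 CPM in WT1, 20.0 against 13.4 in WT2, 14.8 against 9.22 in KO1 and 27.2 against 6.68 in KO3. Lgr4, a receptor for R-spondins, had 0.95 ± 0.46, and Trps1, a repressor of hair growth genes, -0.82 ± 0.28. Of the 8 tested isthmus, infundibulum and sebaceous genes 5 were negative, with a median of -0.19, and Cst6, a cystatin, had -0.46 ± 0.27 and the lipid receptor Ppard -0.45 ± 0.22.

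Cell cycle genes were examined because Nfatc1 is tied to quiescence in the bulge, and most stood above 0 in carriers. Of 23 tested S phase genes 22 were positive, with a median of 0.31, and all 23 were positive on summed counts (median log2 difference 0.44). Cdc45, a partner of the replicative helicase, had 0.89 ± 0.46, and Mcm5, a subunit of that helicase, had 0.91 ± 0.21. The sums of Mcm5 were 466 against 280 CPM in WT1, 249 against 132 in WT2, 291 against 312 in KO1 and 533 against 320 in KO3, so carriers were higher in 3 mice. The median over S phase genes was 0.45 in WT1, 0.38 in WT2 and 0.43 in KO3 but -0.10 in KO1. It was 0.88 without the detected-genes term, 0.18 without WT1, 0.18 after thinning and 0.125 for Tbx1 alone.

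Of 23 G2/M genes 19 were positive, with a median of 0.24. Cenpf, a kinetochore protein, had 0.78 ± 0.19 and sums of 30.7 against 2.85 CPM in WT1, 47.1 against 5.18 in WT2, 14.0 against 7.44 in KO1 and 21.0 against 10.2 in KO3. Carriers were above in all mice, and DESeq2 called it (log2 difference 2.14, adjusted p = 0.0318). The mitotic cyclin Ccnb1 had 0.84 ± 0.43, of which WT2 gave 2.13. The list median was 0.65 in WT2 and 0.76 in KO3 against -0.06 in WT1 and -0.38 in KO1. It was -0.09 for cells chosen by Tbx1 alone and 0.62 for cells chosen by Nfatc1 alone, and 0.02 when WT2 was left out. The settings for Tbx1 alone and Nfatc1 alone also differ in their comparison cells, since each includes the cells with only the other gene. Their medians are thus not set against the same cells, and the difference between them was not tested.

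Energy metabolism, wound and signalling lists had medians between -0.10 and 0.11. Of 28 oxidative phosphorylation genes 9 were positive (median -0.08), of which the complex I subunits Ndufs8 (-0.47 ± 0.16) and Ndufs1 (-0.38 ± 0.41) were furthest from 0. Of 20 glycolysis genes 8 were positive (median -0.06), but 14 on sums (0.03), with Pfkp, a phosphofructokinase, at 0.54 ± 0.33, the lactate exporter Slc16a3 at 0.52 ± 0.29 and Hk2, a hexokinase, at -0.46 ± 0.26. Of 16 TGF-beta response genes 10 were positive (median 0.10), with the ligand Tgfb3 at -0.71 ± 0.40, the integrin Itgav at 0.60 ± 0.39 and the receptor Tgfbr2 at 0.54 ± 0.29. Of 11 wound keratin and EMT genes 4 were positive (median -0.10, although the median within each mouse was positive at 0.01 to 0.17), but 7 on sums (0.20), with the transcription factor Snai2 at 0.61 ± 0.38 and the matrix protein Tnc, positive in all 4 mice, at 0.92 ± 0.26. Of 20 immediate early and stress genes 14 were positive (median 0.09), with Atf3 at 0.64 ± 0.30, Egr3 at -0.55 ± 0.31 and the chaperone gene Hspa1b at -0.52 ± 0.24. Of 10 tumour propagating cell factors 6 were positive (median 0.11), and the homeobox gene Pitx1 was negative in all 4 mice (-0.64 ± 0.19).

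**Figure D5:**
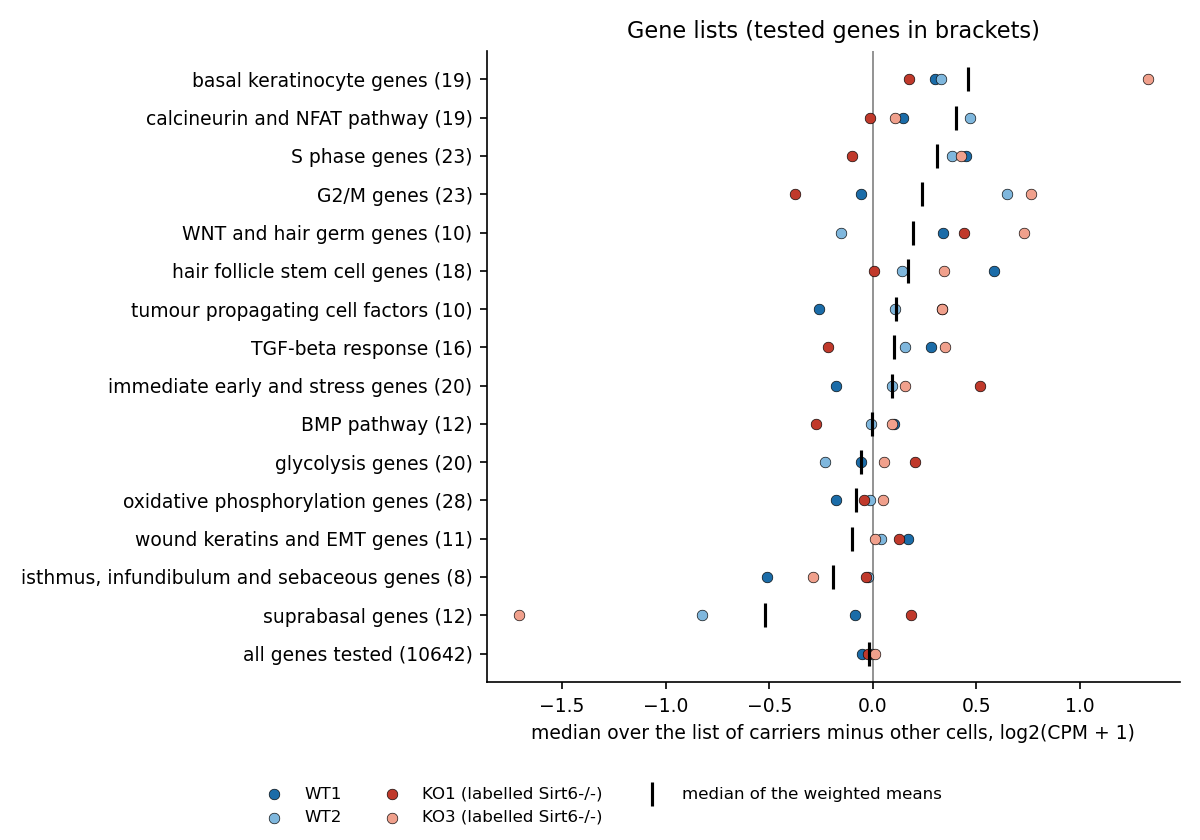
Median difference between carriers and other cells of the same mouse over the tested members of each gene list (number in brackets), on the log2(CPM + 1) scale with the number of detected genes as covariate. Points are mice and the black bar is the median of the weighted means. Basal genes have the highest median at 0.46 and suprabasal genes the lowest at -0.52, while all 10642 genes together lie at -0.02.

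DESeq2 named genes outside these lists, described here after their values were seen. Of its 91 calls 39 were genes that could be tested with the covariate, 20 higher and 19 lower, and all 39 had the same sign there. Both fits use the same cells and the same split into carriers and other cells, so the shared sign is no independent check. Its smallest adjusted p fell to Slpi, a secreted protease inhibitor of epithelia (log2 difference -1.09, adjusted p = 1.96e-08). Slpi sums were 154 CPM in carriers against 427 in other cells of WT1, 8.20 against 16.6 in WT2, 249 against 448.5 in KO1 and 213 against 424 in KO3. They were lower in carriers of every mouse, although per cell with the covariate the difference was -0.31, positive in WT2 and KO1. Gli3, a Hedgehog pathway transcription factor, was at 19.2 against 10.0 CPM in WT1, 22.0 against 6.03 in WT2, 46.8 against 15.5 in KO1 and 20.7 against 10.1 in KO3 (DESeq2 log2 difference 1.36, adjusted p = 0.00854). Its covariate difference was 0.86 and positive in all 4 mice.

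Prkca, protein kinase C alpha, which TPA activates, was at 19.5 against 7.01 CPM in WT1, 15.5 against 5.02 in WT2, 12.1 against 3.49 in KO1 and 11.1 against 2.95 in KO3 (log2 difference 1.69, DESeq2 adjusted p = 0.000295). Asprv1, a protease of the differentiating epidermis, was lower in carriers of all 4 mice, at 15.8 against 29.0 CPM in WT1, 8.15 against 31.3 in WT2, 1.44 against 3.91 in KO1 and 9.98 against 63.8 in KO3 (log2 difference -1.74, DESeq2 adjusted p = 0.0123). Lamc1, the gamma 1 laminin chain, was called higher (0.90, adjusted p = 0.0283). The other 52 calls were genes present in too few cells for the covariate fit, and edgeR called 0 of the 91.

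The genotypes were also compared among carriers alone, the 71 wild-type carriers against the 28 labelled Sirt6-/-. With edgeR on the sums of the 4 mice, 0 of 13789 genes passed (0%), and 808 had an unadjusted p under 0.05. DESeq2 called 56 genes higher and 217 lower in Sirt6-/- carriers, 1.81% of 15117. Its calls ranged from genes with a count in only 1 carrier, such as Ggt1, Rptn and Csf1r, to genes present in most carriers, such as Cav1 in 79. The 6 genes of smallest p in each direction all had an adjusted p of 0.537 (edgeR). DESeq2 called every one of them, with adjusted p from 5.67e-12 for Fcgbp to 0.0144 for Chchd4, so the 2 methods differ on these genes. Spink5, an inhibitor of epidermal proteases, stood at 225 TMM-scaled CPM in WT1 and 195 in WT2 against 622 in KO1 and 516 in KO3 (log2 difference 1.44 ± 0.23). Pmaip1, a cell death gene that p53 induces, stood at 52.1 and 60.2 against 127 and 173 (1.42 ± 0.29), and Chchd4, a mitochondrial import factor, at 48.4 and 44.9 against 108.3 and 108.1 (1.21 ± 0.26). Tgm3, an epidermal transglutaminase, stood at 15.1 and 5.25 against 131 and 168 CPM, but had a count in only 5, 3, 5 and 3 carriers. In these genes both Sirt6-/- mice stood above both wild-type mice.

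Gpr183 and Fchsd1 had 0 counts in wild-type carriers and rested on few Sirt6-/- carriers, 3 and 4, with 63.1% and 63.5% of their counts in 1 cell.

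On the lower side, Cav1, the coat protein of caveolae, stood at 356 and 376 TMM-scaled CPM in the WT1 and WT2 mice, whereas KO1 and KO3 had 130 and 99.8 (log2 difference -1.67 ± 0.25). Tnc, a matrix protein of wounds and tumour stroma, stood at 200.1 and 346 against 36.8 and 50.9 (-2.64 ± 0.39), and Glg1, a Golgi glycoprotein, at 81.7 and 110 against 17.5 and 22.8 (-2.25 ± 0.35). Fcgbp, Cyp4b1 and Cspg4 had 0 counts in all carriers of both Sirt6-/- mice. In WT1 and WT2 they stood at 104 and 54.4, 23.0 and 32.7, and 26.1 and 83.6 TMM-scaled CPM in turn, with 61.5% of the Fcgbp counts in 1 cell. Fcgbp had a count in only 1 carrier of WT1 and 7 of WT2, Cyp4b1 in 6 and 9, and Cspg4 in 6 and 16. No fold is given, since 1 cell with the transcript can bring many reads and there were only 28 Sirt6-/- carriers. In the cells without Tbx1 or Nfatc1, both Sirt6-/- mice stood above both wild-type mice for 1 of the 6 higher genes, Spink5 (186 and 54.6 CPM against 606.5 and 700), where 19.8% of all genes had that order. They stood below them for 5 of the 6 lower genes, where 15.9% of all genes did, and Cav1 was at 310.1 and 329 CPM against 130 and 63.5. Fcgbp counts among the 5 although WT1 had only 0.139 CPM of it there, with 80.9 in WT2 and 0 in KO1 and KO3. The genes were chosen among carriers of the same mice and plates, so these other cells are no independent check. The genotypes overlapped there for Pmaip1 (55.5 and 110.1 against 95.03 and 126 CPM), Chchd4 (63.1 and 22.5 against 53.6 and 88.6), Tgm3, Gpr183 and Fchsd1, and for Cyp4b1 (7.98 and 47.5 against 10.9 and 10.2). Whether the difference between carriers and other cells depended on genotype was tested with limma on the 4 differences, and 0 of 10642 genes passed (0%), with 599 at an unadjusted p under 0.05.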

How the data were processed

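Each of the 284 samples is a single cell. The values deposited by the authors are expected counts of each gene in each cell, made with STAR and RSEM, per the submitters' processing notes, which name the builds mm10 and GRCm38. The sources used here give no versions, settings or strand, so overlapping antisense genes were not told apart. Of non-zero values 21.5% were not whole (tolerance 1e-06), as happens where reads are shared between similar genes. Of 54247 gene IDs, 54156 matched GENCODE M21, which supplied symbols. Totals per cell were 523999 to 1684464 counts. No molecular identifiers were used, so a count is a read. Identical values were found in 0 cells, no cell was left out, and no doublet caller was run on single sorted cells.

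The members and the gene lists were chosen with earlier results of these data known, and the lower Tbx1 and Nfatc1 levels under the Sirt6-/- label were among them. Per mouse and gene, log2(CPM + 1) was fitted on carrier status and genes detected, for genes detected in 10% or more of each mouse's cells. The 4 coefficients were tested for a mean other than 0 with limma 3.58.1 (two-sided, 3 residual degrees of freedom, weights by cell numbers). Counts summed per mouse and class were rounded and tested with edgeR 4.0.16 (TMM, filterByExpr, quasi-likelihood, mouse as block) in R 4.3.3. All p-values were Benjamini-Hochberg adjusted over all genes tested, with a threshold of 0.05. The p-values rest on the spread between 4 mice. DESeq2 1.42.0 was an alternative. The scripts were tested on simulated data. Genes named from the covariate fit are the 8 of smallest p per direction with 1 sign in all mice, because fewer than 5 passed. Members of the follicle, NFAT and BMP lists are named, and from the other lists those of largest difference. Thinning drew 500000 counts per cell. Alternatives to the definition of a carrier, depth, plate, covariate, pseudocount, filter, weights and scaling, and the left-out mice, are in the closing section. For Tbx1 alone or Nfatc1 alone the comparison was all cells without that gene, cells with only the other gene included. Values of 1 basal keratinocyte gene are not reported here, although it is among the 19 counted.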

Additional observations from a re-analysis of the deposited data

Results flagged for a closer look

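The median difference of glycolysis genes between carriers and other cells was negative in both wild-type mice, -0.0564 in WT1 and -0.233 in WT2, and positive in both Sirt6-/- mice, 0.204 in KO1 and 0.0547 in KO3. The difference between the genotypes was not tested for this list. Among the 15 lists with at least 5 tested genes, no other had 1 sign in both wild-type mice and the other in both Sirt6-/- mice.

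Of the 76 tested genes in the follicle, NFAT, BMP, basal and suprabasal lists, 4 had 1 sign in both wild-type mice and the other in both Sirt6-/- mice, a smaller share than the 11.8% of all 10642 genes. The Sirt6-/- minus wild-type contrast of the differences was -1.47 for Cd34, -1.98 for Id2, 1.02 for Trp63 and 1.66 for Dlk2. With limma the adjusted p was 0.869 for each of them.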

How the results depend on the processing

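With 2 mice per genotype and 4 in all, the tests resolve only large and uniform differences, and genotype and plate cannot be told apart. A cell at 0 for Tbx1 and Nfatc1 may hold either transcript below detection at 523999 to 1684464 counts. The Sirt6-/- mice had the lower share of carriers in all 11 alternatives, which reuse the same Tbx1 and Nfatc1 counts and are not independent checks. Leaving out 1 mouse could not change the order, since the shares of the other mice stay the same. The difference was 14.9 points for Tbx1 alone, 13.2 for Nfatc1 alone and 22.9 at 5 or more counts with the 22 carriers below that left out (20.4 as a share of all cells, chosen after seeing the data). It was 22.2 after thinning, 22.5 on 1 plate per mouse, 24.6 at the median number of detected genes and 21.1 to 24.6 without 1 mouse each.

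The number of genes called by limma or edgeR was 0 under all their alternatives, leaving out each mouse included (0 to 0), among them edgeR with no replicate block, where 250 genes had an unadjusted p under 0.05. DESeq2 called 33 higher and 58 lower in carriers, and 56 higher and 217 lower in Sirt6-/- carriers, and the cause was not tested. WT and KO mice share only the number 1, so no pairing across genotypes applies. The 16 named genes kept their sign in every alternative run. Without 1 mouse and with equal weights this was fixed in advance, since the genes were chosen for the same sign in every mouse. The median of basal genes was positive and that of suprabasal genes negative in all 15 alternatives. The G2/M median was -0.0857 for Tbx1 alone, the oxidative phosphorylation median 0.0366 with no covariate and, without 1 mouse each, -0.122 to 0.000648, the latter without WT1. Without 1 mouse each the follicle stem cell median was -0.0241 (without WT1) to 0.368. The BMP median, -0.01 in the report, was 0.0172 at 5 or more counts, 0.0902 for Tbx1 alone, 0.0993 for Nfatc1 alone, 0.0639 after thinning, 0.0214 on 1 plate per mouse, 0.0951 with no covariate, 0.0157 with a pseudocount of 10, 0.0658 for genes in at least 5% of cells and -0.0168 to 0.0356 without 1 mouse each. The wound and EMT median, -0.10 in the report, was 0.00554 at 5 or more counts, 0.069 for Tbx1 alone, 0.241 for Nfatc1 alone, 0.0368 after thinning, 0.248 with no covariate and -0.102 to 0.00366 without 1 mouse each. With no covariate the medians were 0.101 for glycolysis, 0.149 for isthmus and sebaceous and -0.0243 for immediate early genes, the last being -0.000625 for Nfatc1 alone. Without 1 mouse each glycolysis was -0.113 to 0.000649 and the tumour propagating factors -0.0178 to 0.183. The S phase median was 0.883 with no covariate and 0.125 for Tbx1 alone, 0.181 after thinning and 0.182 without WT1, the NFAT median 0.193 at 5 or more counts, and the TGF-beta median 0.355 for Nfatc1 alone. The cause of these shifts was not tested.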
